A study of Rattus norvegicus with 20 samples.

Results

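The nuclear genes of the mitochondrial respiratory chain and ATP synthase were followed across the livers of 20 rats. They were taken from the array annotation by symbol, where a probe set carried 1 gene symbol. The rule took Nduf followed by a, b, c, s or v, Sdha to Sdhd, names beginning with Uqcr or Atp5, Cyc1 and Cycs. It also took Cox4 to Cox8 with an optional letter from a to c and an optional digit. The rule used no measured value and found 83 of 14557 genes, and a gene with several probe sets was represented by the brightest on average. Of these 83 genes, 65 encode subunits (27 of complex I, 4 of complex II, 6 of complex III, 14 of complex IV and 14 of complex V), 7 are complex I assembly factors (Ndufaf genes), 10 are loci named after a subunit and 1 is the ATP synthase inhibitor Atp5if1. The animals were male rats that the labels assign to the Zucker strain, in 4 groups of 5: a rosiglitazone group, a resveratrol group, an obese group that had received a stock diet for 6 weeks, and a lean control group on a standard Purina chow. The growth protocol speaks of ZDF (Zucker diabetic fatty) rats in general, whereas the study's text sets the lean control rats apart from the ZDF animals. Rosiglitazone, a thiazolidinedione, is an agonist of PPARgamma, while resveratrol is a polyphenol made by plants such as grapevine. The sources used here give no dose, duration, diet or body type for either treated group, and no age or leptin receptor genotype for any rat. Each liver gave 1 Affymetrix Rat Gene 2.1 ST array from 100 ng of total RNA.

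Oxidative phosphorylation runs on 5 protein complexes of the inner mitochondrial membrane. Complex I takes electrons from NADH and complex II from succinate, ubiquinone carries them to complex III, cytochrome c passes them on to complex IV, where oxygen is reduced, and complex V makes ATP from the proton gradient that complexes I, III and IV build. The liver is rich in mitochondria and uses this chain to oxidise fatty acids and to power glucose and urea synthesis. A minority of the subunits is encoded in mitochondrial DNA and was not analysed here, nor was Cycs, which shared its probe set with another symbol.

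All values below are deposited log2 values from robust multi-array averaging (RMA), on which a difference of 1 is a doubling, and levels are compared between rats for 1 probe set and never between probe sets. Array medians over all probe sets lay between 2.36 and 2.53. A gene was tested when it stood above the array median in at least 5 arrays, which 9481 genes did, and it was called when its limma p, adjusted by the method of Benjamini and Hochberg over all 9481 genes, was under 0.05. Of the 83 genes, 73 were tested, 60 of them subunits, and 10 were not: Cox6b1, Cox6b2, Cox7b2, Cox8b, Cox8c, Atp5mgl4, Ndufb11b, Ndufb4l1, Ndufb4l3 and Uqcr11l1. A further 14 probe sets listed a member symbol together with other symbols and were not used, which left out Atp5mc2, Cox5a, Cox7a2, Ndufa10, Ndufs5 and Uqcrb among others. The tissue label was checked on the 4 measured hepatocyte markers (Alb, Ttr, Tat and Cps1), which all passed this filter and whose mean per rat lay between 10.45 and 10.87, above the median of every array. In this bulk tissue, fewer cells of a type and less RNA per cell cannot be told apart.

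The lean control arrays spread most. The median within-group SD of the 60 tested subunits was 0.142 in the rosiglitazone group, 0.114 in the resveratrol group, 0.124 in the obese group and 0.221 in the lean control group, while over all tested genes it was 0.223, 0.216, 0.210 and 0.237 in the same groups. Lean control rat 1 was the lowest of its group in 43 of 60 subunits and lean control rat 3 the highest in 39 of 60, so each comparison with lean control is also given without these arrays. Nothing in the labels sets these 2 rats apart. In the rosiglitazone group, rat 3 was the highest in 34 of 60 subunits.

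Each rat was first placed by the mean, over the 60 tested subunits, of its deviation from each gene's mean over all 20 arrays (log2). This mean deviation was 0.003, -0.123, 0.082, -0.086 and -0.074 in rosiglitazone rats 1 to 5, and 0.089, 0.089, 0.143, 0.143 and 0.030 in resveratrol rats 1 to 5. It was 0.004, 0.109, 0.055, 0.132 and 0.092 in obese rats 1 to 5, and -0.411, -0.082, 0.075, -0.095 and -0.175 in lean control rats 1 to 5. All 5 resveratrol and all 5 obese rats were above 0, while 3 rosiglitazone rats and 4 lean control rats were below it. Lean control rat 3 lay within the range of the obese rats, and lean control rat 1 stood furthest from every other rat. The 5 complexes gave much the same picture. In complex IV the mean deviation was -0.052 to 0.090 in obese rats and -0.288 to -0.004 in lean control rats, and in complex II it was 0.020 to 0.153 in obese rats and -0.532 to 0.152 in lean control rats. These are descriptions over genes read on the same arrays, not independent measurements.

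**Figure D1:**
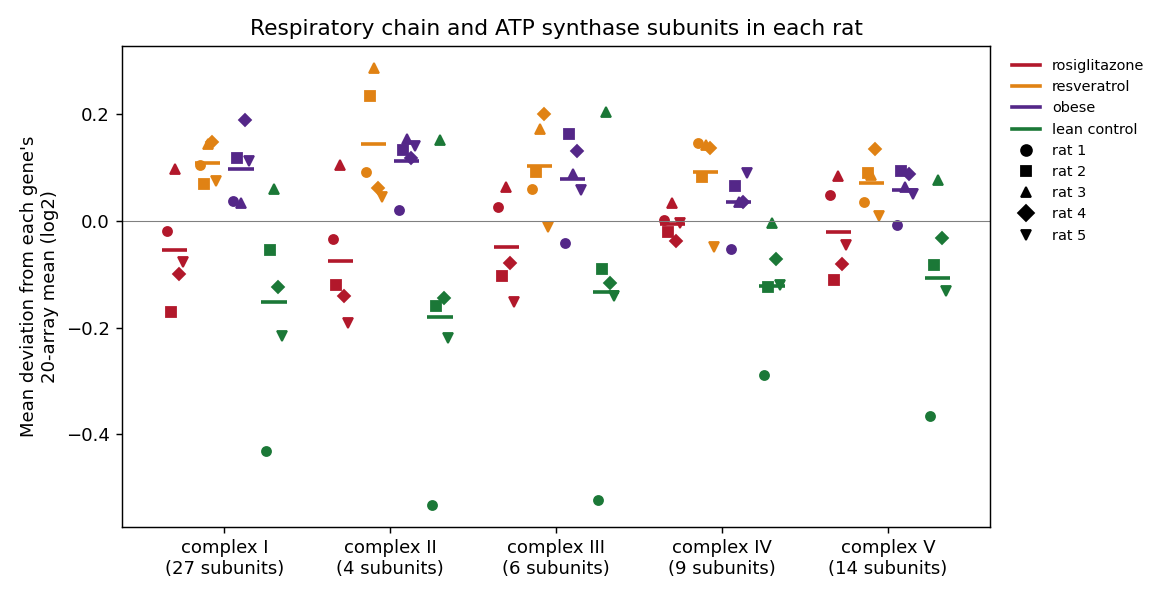
Mean deviation (log2) of the tested subunits of each complex from their 20-array means, 1 symbol per rat and a line at each group's mean. Resveratrol and obese rats sit mostly above 0, and lean control rat 1 is the lowest point of every complex, from -0.288 in complex IV to -0.532 in complex II.

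Obese livers were then compared with lean control livers. Cox6a1, the liver and general form of a nuclear-encoded cytochrome c oxidase subunit, and Ndufs7, a complex I core subunit that holds an iron-sulfur cluster on the way to ubiquinone, were higher in obese livers, and no member was called lower. These 2 members are 2.74% of the 73 tested, beside 0.686% of all tested genes called higher and 1.13% called lower. The fitted difference was positive in 56 of 60 subunits, with a median of 0.23 on the log2 scale, against 50.6% of all tested genes and a median of 0.00. At an unadjusted p under 0.05, 29 of the 73 members had a positive and 1 a negative difference (28 and 1 of the 60 subunits), where 8.8% of all tested genes were positive and 8.56% negative at that level. All 5 obese values lay above all 5 lean control values in 9 subunits (15% of 60), which 1.53% of all tested genes did. The size was small: apart from Ndufab1, no tested member had a difference above 0.50.

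Cox6a1 had values of 8.69, 8.82, 8.80, 8.83 and 8.98 in obese rats, against 8.22, 8.49, 8.53, 8.50 and 8.50 in lean control rats. The ranges were apart, and lean control rat 1 stood below the other lean rats. The difference was 0.38 ± 0.09 (SE; adjusted p = 0.0307, limma). Ndufs7 had values of 7.29, 7.10, 7.13, 7.10 and 7.24 in obese rats, against 6.46, 6.81, 6.87, 6.72 and 6.81 in lean control rats. These groups did not overlap either, with a difference of 0.43 ± 0.11 (adjusted p = 0.0445). Neither call was firm: with 1 array of the 2 groups left out at a time, Cox6a1 stayed called in 3 of 10 fits (adjusted p from 0.0197 to 0.0852) and Ndufs7 in 1 of 10 (0.0235 to 0.112), although both differences stayed positive.

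Within complex I, 26 of 27 subunits had a positive difference, with a median of 0.23 and 14 at an unadjusted p under 0.05. The 5 measured core subunits, which carry the flavin, the iron-sulfur clusters and the path of the electrons, had a median of 0.26, and the 22 supernumerary subunits one of 0.22. Ndufv1, the core subunit that binds NADH, gave 6.89, 6.98, 6.94, 6.91 and 6.93 in obese rats, against 6.17, 6.75, 6.95, 6.52 and 6.46 in lean control rats. The obese values lay close together and only lean control rat 3 reached them, and the difference was 0.36 ± 0.11 (adjusted p = 0.10). Ndufab1, the mitochondrial acyl carrier protein, which also serves fatty acid and iron-sulfur cluster synthesis, gave 5.55, 5.69, 5.62, 5.45 and 5.80 in obese rats, against 4.59, 5.34, 5.55, 5.27 and 4.61 in lean control rats. Its difference of 0.55 ± 0.16 was the largest of any tested member (adjusted p = 0.0716), and lean control rats 1 and 5 were far below the other 3. Ndufb9, which is named because its probe set was the brightest of complex I, had a difference of 0.29 ± 0.12 (adjusted p = 0.193). Ndufb10, at the other end, had a difference of 0.00 ± 0.12.

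All 4 subunits of complex II, which is also an enzyme of the tricarboxylic acid cycle, had positive differences. Sdhc, a membrane anchor subunit, had values of 7.40, 7.53, 7.58, 7.51 and 7.62 in obese rats, against 6.52, 7.30, 7.35, 7.13 and 6.87 in lean control rats. Every obese value lay above every lean control value, but the adjusted p was 0.0610 for a difference of 0.49 ± 0.13. The flavoprotein Sdha, the iron-sulfur protein Sdhb and the second anchor Sdhd had differences of 0.19 ± 0.11, 0.26 ± 0.12 and 0.23 ± 0.11. In complex III all 6 differences were positive, from 0.01 for the hinge protein Uqcrh to 0.34 for cytochrome c1 (Cyc1), with a smallest adjusted p of 0.213 for Uqcrq, which had a difference of 0.27 ± 0.11.

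In complex IV, 7 of 9 tested subunits had a positive difference and the median was 0.16. Cox8a had values of 6.98, 7.07, 6.98, 7.02 and 7.33 in obese rats, against 6.14, 6.58, 6.90, 6.73 and 7.0 in lean control rats. Only lean control rat 5 fell inside the obese range, and the difference was 0.40 ± 0.13 (adjusted p = 0.102). In complex V, 13 of 14 were positive with a median of 0.22. Of its catalytic head, the alpha subunit Atp5f1a had a difference of 0.16 ± 0.09 and the beta subunit Atp5f1b one of 0.19 ± 0.11. In the membrane, Atp5mc3, a gene for the c subunit of the turning ring, had one of 0.28 ± 0.13 (adjusted p = 0.272). Atp5pd, in the stalk that holds the head still, gave 0.30 ± 0.11 with groups that did not overlap (adjusted p = 0.139). The only negative one was the gamma subunit Atp5f1c (-0.46 ± 0.15, adjusted p = 0.115), whose probe set read between 1.51 and 3.06 on all arrays and passed the filter in 6 arrays only, so that this probe set stood near the array medians although the gamma subunit is part of every ATP synthase.

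The other members were mixed. The 7 Ndufaf genes, which help to build complex I, had 3 positive and 4 negative differences with a median of -0.12, and Ndufaf1 was the highest of them at 0.34 ± 0.12 (adjusted p = 0.144). The inhibitor Atp5if1, which blocks ATP hydrolysis by complex V when the membrane potential is lost, differed by 0.00 ± 0.11. The 5 tested loci named after subunits had a median of -0.12.

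**Figure D2:**
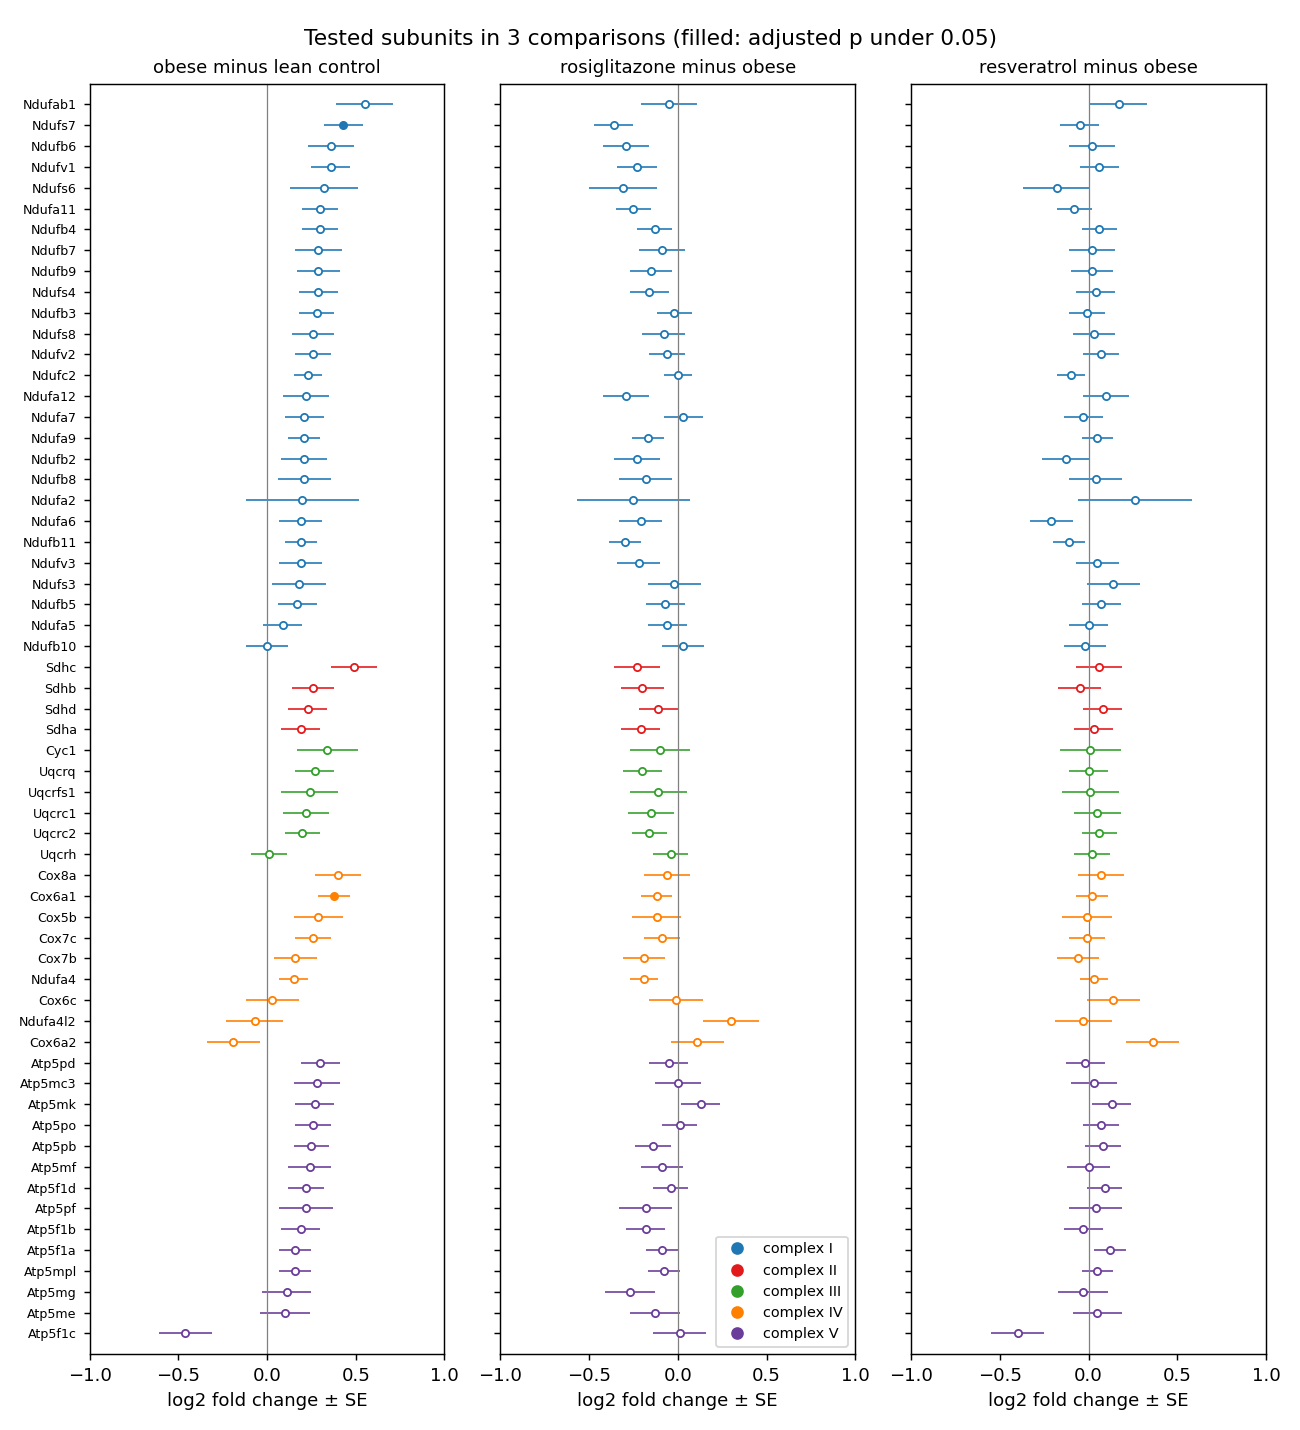
Fitted log2 fold change ± SE of each of the 60 tested subunits, coloured by complex, for obese minus lean control, rosiglitazone minus obese and resveratrol minus obese (5 rats per group). Filled points passed the adjusted threshold; those are Cox6a1 and Ndufs7 in the first panel, where 56 of 60 points lie right of 0, while 51 of 60 lie left of it in the second.

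The shift rested in part on the lean arrays that stood apart. Without lean control array 1 the subunit median was 0.16, 54 of 60 differences were positive and 16 were so at an unadjusted p under 0.05, and no member was called. Without lean control array 3 the median was 0.30 and 58 were positive, and 9 members were called, all higher (9 of 73, beside 3.01% of all genes tested in that setting): Cox6a1, Ndufs7, Atp5pb, Cox8a, Ndufab1, Ndufaf1, Ndufb6, Ndufv1 and Sdhc. Without both arrays, a setting chosen after the data were seen, the median was 0.20, 55 of 59 tested subunits were positive and only Atp5pb, a peripheral stalk subunit, was called higher (1.39% of 72 members, beside 1.62% of all genes). Leaving out any of the other 8 arrays gave 0 or 1 called members. Some markers of other liver cells had the opposite sign. All 10 tested Kupffer cell and macrophage markers had negative differences, with a median of -0.51 and 2 called lower. Their mean per rat was 4.89 to 5.21 in obese rats and 5.13 to 5.82 in lean control rats. The 6 tested endothelial markers were also all negative, with a median of -0.51 and 2 called lower, at 4.92 to 5.21 in obese rats and 5.43 to 5.65 in lean control rats, and over all arrays the means of the single markers lay between 3.89 and 6.04 in the first list and between 3.83 and 6.39 in the second. The 6 stellate cell and fibroblast markers did not share this sign, with 3 positive and 3 negative differences and a median of 0.05. Of the 4 hepatocyte markers, 1 was positive and 3 were negative (median -0.09). The 3 adipocyte, 3 cholangiocyte and 2 lymphocyte and neutrophil markers tested were all negative (medians -0.44, -0.29 and -0.14), and the 4 muscle markers all positive (0.16). None of these was called. The part of these lists in the subunit shift was not tested.

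**Figure D3:**
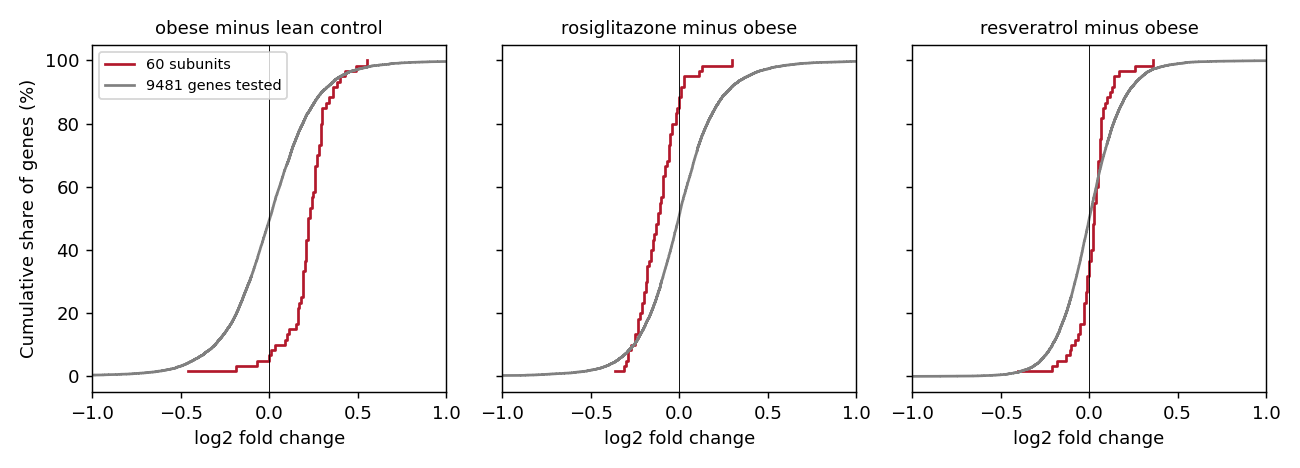
Cumulative share of genes (%) against log2 fold change for the 60 tested subunits and for all 9481 tested genes, in 3 comparisons. The subunit curve lies right of that of all genes in obese minus lean control (median 0.23 against 0.00), left of it in rosiglitazone minus obese (-0.12 against 0.00) and close to it in resveratrol minus obese (0.03 against 0.00).

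In rosiglitazone livers compared with obese livers, most subunits had a small negative difference, and none was called, where 1.5% of all tested genes were. The difference was negative in 51 of 60 subunits and the median was -0.12. At an unadjusted p under 0.05, 7 of the 73 members were negative and none positive, beside 5.62% and 6.54% of all tested genes. Medians by complex were -0.16, -0.20, -0.13, -0.09 and -0.09 from complex I to complex V. Ndufs7 had values of 6.75, 6.51, 7.11, 6.98 and 6.74 in rosiglitazone rats, against 7.29, 7.10, 7.13, 7.10 and 7.24 in obese rats. Rosiglitazone rat 3 reached the obese range and rat 4 came near it, and the difference was -0.36 ± 0.11 (adjusted p = 0.132). Ndufb11, a supernumerary complex I subunit had values of 5.96, 5.80, 5.84, 5.93 and 6.00 in rosiglitazone rats, against 6.14, 6.25, 6.07, 6.23 and 6.33 in obese rats. Here the ranges were apart, and the difference of -0.30 ± 0.09 had an adjusted p of 0.126, the smallest of the members. The subunits Sdha, Ndufv1 and Ndufa4 did not overlap between the groups either, with differences of -0.21 ± 0.11, -0.23 ± 0.11 and -0.19 ± 0.08 (adjusted p = 0.460, 0.424 and 0.360). With Ndufb11 these were 4 of 60 subunits, beside 160 of all 9481 tested genes whose rosiglitazone values all lay under the obese values. The smallest p in complex III was that of Uqcrq (-0.20 ± 0.11, adjusted p = 0.498) and in complex V that of Atp5mg (-0.27 ± 0.14, adjusted p = 0.460), whose product sits in the membrane part of the synthase. Atp5mk was among the few with a positive difference (0.13 ± 0.11, adjusted p = 0.718).

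The subunit median stayed between -0.16 and -0.10 with any array of these 2 groups left out, and 48 to 55 of the 60 differences stayed negative. The 6 subunits that were negative at an unadjusted p under 0.05 (10% of 60, beside 5.62% of all tested genes) were a less steady count. It was 10 without rosiglitazone array 3, 3 without rosiglitazone array 2, rosiglitazone array 4 or obese array 2, and 2 without obese array 4 (3.33%, beside 4.65% of all genes). Kupffer cell and macrophage markers again had the opposite sign: all 10 were called higher, with a median of 0.78, at 5.81 to 6.19 per rat in the rosiglitazone group and 4.89 to 5.21 in the obese group. The 6 endothelial markers had a median of 0.15 with none called, and the stellate cell and fibroblast markers one of -0.02. Of the 3 adipocyte markers tested, 2 were positive and 1 negative (median 0.27), and 1 was called higher. Medians of the hepatocyte, cholangiocyte, muscle, and lymphocyte and neutrophil markers were 0.01, 0.06, -0.19 and 0.24, with none called. Their part in the result was not tested.

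In resveratrol livers compared with obese livers, no member was called, beside 0.0105% of all tested genes, and 39 of 60 subunits had a positive difference with a median of 0.03. At an unadjusted p under 0.05, 2 of the 73 members were positive and 1 negative, where 2.97% and 2.35% of all tested genes were. Those were the complex I assembly factor Ndufaf8 (0.35 ± 0.11, adjusted p = 0.737), the muscle and heart isoform Cox6a2 (0.36 ± 0.15, adjusted p = 0.893) and Atp5f1c (-0.40 ± 0.15, adjusted p = 0.823), whose probe set stood near or under the array medians. In complexes I to III the smallest p were those of Ndufa6 (-0.21 ± 0.12), Sdhd (0.08 ± 0.11) and Uqcrc2 (0.06 ± 0.10), with adjusted p of 0.925, 0.970 and 0.989. Next came Uqcrc1, like Uqcrc2 a core protein of complex III (0.05 ± 0.13, adjusted p = 0.994), and, after Cox6a2 in complex IV, Cox6c (0.14 ± 0.15, adjusted p = 0.967). Cox6a1 averaged 8.85 ± 0.10 in resveratrol rats and 8.82 ± 0.11 in obese rats (SD, n = 5 each), and Ndufs7 averaged 7.12 ± 0.09 in resveratrol rats and 7.17 ± 0.09 in obese rats. A missed threshold does not show that the groups are alike. Of the Kupffer cell and macrophage markers, 8 of 10 had positive differences here (median 0.15, none called).

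Set against resveratrol livers, rosiglitazone livers again had no member called, where 0.886% of all tested genes were. The difference was negative in 54 of 60 subunits, with a median of -0.15, and 15 of the 73 members were negative and 2 positive at an unadjusted p under 0.05, beside 6.04% and 5.9% of all tested genes. All 5 rosiglitazone values lay under all 5 resveratrol values in 9 subunits (15% of 60), which 1.68% of all tested genes did. Ndufa12, a supernumerary subunit of complex I, had values of 6.27, 6.02, 6.04, 6.00 and 6.05 in rosiglitazone rats, against 6.34, 6.40, 6.65, 6.63 and 6.30 in resveratrol rats. The groups did not overlap, and the difference of -0.39 ± 0.13 had an adjusted p of 0.190, the smallest of the subunits. Ndufaf8 was at 4.34 to 4.63 in rosiglitazone rats and 4.85 to 5.14 in resveratrol rats, a difference of -0.39 ± 0.11 (adjusted p = 0.131). The subunits among the 15 negative members numbered 12, and this count depended on single arrays: it was 5 without rosiglitazone array 4 (8.33% of 60, beside 5.5% of all genes), 6 without rosiglitazone array 2, 7 without resveratrol array 2 and 17 without rosiglitazone array 3. The Atp5mgl3 locus, named after the g subunit of complex V, differed by -0.64 ± 0.17 (adjusted p = 0.0809). Kupffer cell and macrophage markers had a median of 0.74 here with 7 of 10 called higher and endothelial markers one of 0.18 with none called, and their part was not tested.

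Resveratrol livers were also compared with the lean control livers that serve as the far end of the design. Here 8 members were called higher (11% of the 73 tested, beside 2.4% of all tested genes) and 1 lower (1.37%, beside 2.33%). The differences were positive in 56 of 60 subunits with a median of 0.26, and 34 members were positive and 1 negative at an unadjusted p under 0.05, against 10.6% and 9.82% of all tested genes. In 12 subunits (20% of 60) the resveratrol values all lay above the lean control values, as they did in 2.15% of all tested genes. This comparison shares its lean control arrays with the one of obese livers, so the 2 are not separate evidence.

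The 8 members called higher spanned complexes I, II, IV and V: Ndufab1, Ndufb4, Ndufs7 and Ndufv1, then Sdhc, then Cox6a1 and Cox8a, then Atp5mk. Cox6a1 had values of 8.91, 8.86, 8.94, 8.85 and 8.68 in resveratrol rats, against 8.22, 8.49, 8.53, 8.50 and 8.50 in lean control rats. The groups did not overlap, and the difference was 0.40 ± 0.09 (adjusted p = 0.0158). Ndufab1 had values of 6.00, 5.71, 5.63, 5.71 and 5.90 in resveratrol rats, against 4.59, 5.34, 5.55, 5.27 and 4.61 in lean control rats. It had the widest gap of the 8, 0.72 ± 0.16 (adjusted p = 0.0149), again without overlap. Both stayed called with any 1 of the 10 arrays left out (adjusted p up to 0.0416 for Cox6a1 and 0.0430 for Ndufab1).

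Sdhc had values of 7.57, 7.62, 7.77, 7.44 and 7.52 in resveratrol rats, against 6.52, 7.30, 7.35, 7.13 and 6.87 in lean control rats, and a difference of 0.55 ± 0.13 (adjusted p = 0.0235). It stayed called in 7 of 10 such fits, and not without resveratrol array 3 or lean control arrays 1 or 5. The other 5 were less firm. Atp5mk, a small membrane subunit of complex V, had values of 8.20, 8.30, 8.04, 8.23 and 8.10 in resveratrol rats, against 7.79, 7.81, 7.92, 7.76 and 7.57 in lean control rats. The groups did not overlap, and the difference was 0.41 ± 0.11 (adjusted p = 0.0362, called in 2 of 10 fits with an array left out). Ndufv1, Cox8a, Ndufs7 and Ndufb4 had differences of 0.42 ± 0.11, 0.47 ± 0.13, 0.39 ± 0.11 and 0.35 ± 0.10, with adjusted p of 0.0393, 0.0399, 0.0469 and 0.0451, and were called in 1 to 3 of 10 such fits.

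The 1 member called lower was Atp5f1c, with values of 1.83, 1.51, 1.78, 1.91 and 1.82 in resveratrol rats, against 2.78, 2.50, 2.61, 3.06 and 2.17 in lean control rats. The groups did not overlap, and the difference was -0.86 ± 0.15 (adjusted p = 0.00684), which stayed called with any 1 array left out. All resveratrol values lay under the array medians, so this probe set was measured close to the low end of the scale. It passed the low-value filter in only 6 arrays: lean control 1 to 4, rosiglitazone 4 and obese 3. Of the 2 compared groups, only lean control, where it was higher, admitted it to the test, so no lower expression is read from this call. It was not tested under the stricter filters, with only the compared groups fitted or without lean control arrays 1 and 3. Counts of called members moved widely with the lean arrays: 3 were called without lean control array 1 (Atp5f1c, Cox6a1 and Ndufab1), 20 without lean control array 3, and 8 without both. These were 4.11%, 27.4% and 11.1% of the members tested, beside 2.3%, 8.12% and 4.91% of all genes in the same settings, so the count over all genes moved in the same direction. Kupffer cell markers had a median of -0.37 with 3 called lower and endothelial markers one of -0.52 with 2 called lower in this comparison. The 4 hepatocyte markers were all negative (median -0.12, none called). The part of these lists was not tested.

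**Figure D4:**
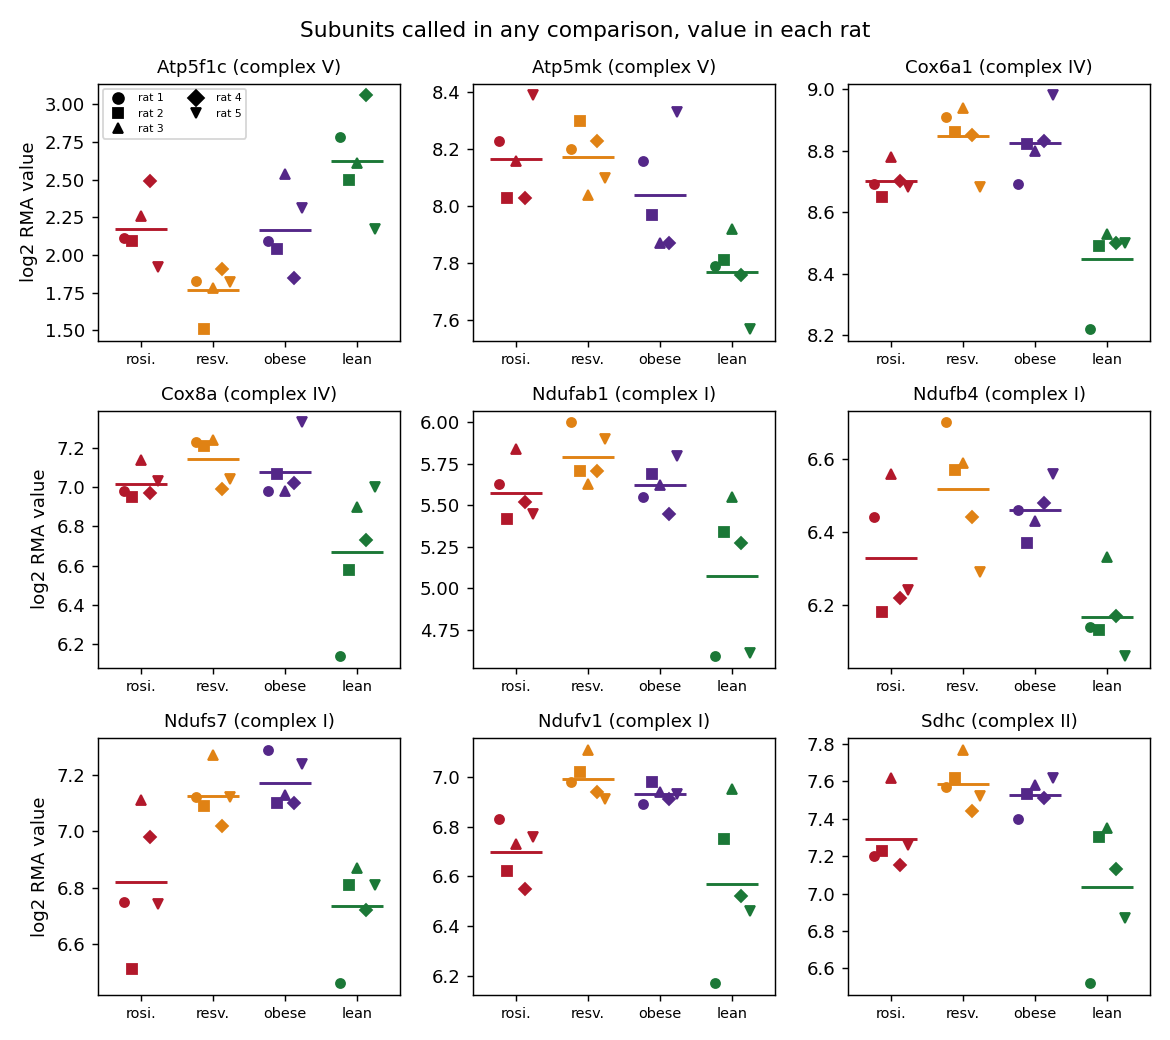
Log2 RMA value in each rat of the 9 subunits called in any comparison, with a line at each group's mean (rosi., rosiglitazone; resv., resveratrol; lean, lean control). In Cox6a1, Ndufs7 and Sdhc no resveratrol or obese value overlaps the lean control values, and Atp5f1c runs the other way near the low end of the scale.

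Against lean control livers, no member was called in rosiglitazone livers, beside 2.42% of all tested genes, and 46 of 60 subunits had a positive difference with a median of 0.08. At an unadjusted p under 0.05, 10 of the 73 members were positive and 2 negative, against 7.83% and 7.63% of all tested genes. Atp5mk had values of 8.23, 8.03, 8.16, 8.03 and 8.39 in rosiglitazone rats, against 7.79, 7.81, 7.92, 7.76 and 7.57 in lean control rats. The groups did not overlap, and the difference of 0.40 ± 0.11 had an adjusted p of 0.0527. Atp5mk had means of 8.17 ± 0.15 in rosiglitazone rats, 8.17 ± 0.10 in resveratrol rats, 8.04 ± 0.20 in obese rats and 7.77 ± 0.13 in lean control rats. Ndufs7 had means of 6.82 ± 0.23, 7.12 ± 0.09, 7.17 ± 0.09 and 6.74 ± 0.16 in the rosiglitazone, resveratrol, obese and lean control rats. Without lean control array 1 the subunit median was 0.03, with 4 subunits positive at an unadjusted p under 0.05 where all arrays gave 10. Without lean control array 3 the median was 0.17, with 16 such subunits, and Atp5mk and Ndufab1 were called higher (2.74% of 73, beside 2.15% of all genes). Kupffer cell and macrophage markers had the same sign as most subunits here, with 10 of 10 positive, a median of 0.33 and 2 called higher, at 5.81 to 6.19 per rat in the rosiglitazone group and 5.13 to 5.82 in the lean control group. Of the 6 stellate cell and fibroblast markers, 3 were positive and 3 negative (median -0.04), and 1 was called higher. The 6 endothelial markers (median -0.30) and the 4 hepatocyte markers (median -0.16) were all negative with none called, and the part of these lists was not tested.

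Over all 4 groups at once, a moderated F test called 5 of the 73 members (6.85%), beside 5.01% of all tested genes. They were Atp5f1c (adjusted p = 0.0124), Cox6a1 (0.0257), Ndufs7 (0.0322), Ndufab1 (0.0333) and Sdhc (0.0432). This share is near that of all genes. Atp5f1c passed the low-value filter in 6 arrays only and read under the array medians in the rest, so no difference is read from its call.

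**Figure D5:**
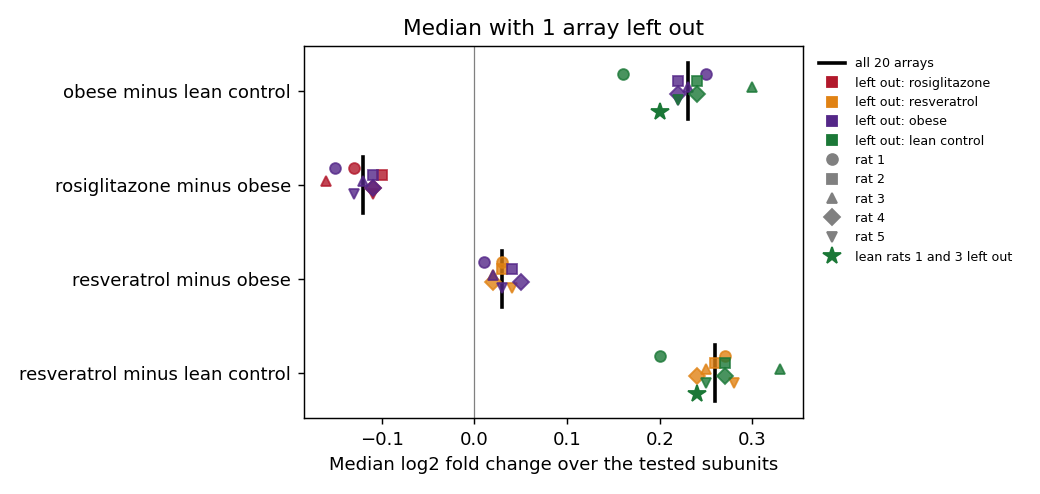
Median log2 fold change over the tested subunits with each array of the compared groups left out in turn, coloured by the group and shaped by the rat left out. The black bars mark the medians with all 20 arrays (0.23, -0.12, 0.03 and 0.26 from top to bottom) and the stars those without lean control arrays 1 and 3 (0.20 and 0.24). The points furthest from the bars in both comparisons with lean control are those without lean control rat 1 (0.16 and 0.20) and rat 3 (0.30 and 0.33).

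Subunits that exist as tissue isoforms were looked at as pairs. Cox6a1 is the form of liver and most tissues, and Cox6a2 belongs to heart and skeletal muscle. Cox6a2 read 2.57 to 2.94 in rosiglitazone rats, 2.58 to 3.38 in resveratrol rats, 2.31 to 2.87 in obese rats and 2.63 to 3.18 in lean control rats, with overlapping groups throughout. The muscle form Cox8b, the testis forms Cox6b2, Cox7b2 and Cox8c, and Cox6b1 did not pass the filter. Cox6b1 is a housekeeping subunit, yet its probe set read 0.70 to 1.21 on all arrays, so its mRNA cannot be judged from it. Ndufa4, a complex IV subunit despite its name, and Ndufa4l2, its hypoxia-induced relative, could not be set side by side. The Ndufa4l2 probe set passed the low-value filter in 9 of 20 arrays only and read 2.22 to 2.96 in rosiglitazone rats and 2.02 to 2.61 in obese rats, around the array medians, so no difference is read from it. Cox4i1 and Cox4i2, whose symbols the naming rule left out, differed by 0.24 ± 0.12 and -0.13 ± 0.17 in obese against lean control livers (adjusted p = 0.307 and 0.761). For 3 members with a second probe set, that probe set gave differences of 0.06 (Atp5mpl), 0.08 (Ndufb3) and -0.06 (Ndufv3) in the same comparison, where the ones used gave 0.16, 0.28 and 0.19.

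Promoters were taken from RefSeq (build GRCr8), which held a window of 250 bases before and 50 after the start of 60 of the 65 subunit genes and of 8 of the 9 called ones. Motifs of factors known to bind promoters of these genes were searched on both strands: CCGGAAG (ETS factors such as GABP), GCGCANGCG (NRF1), AAGATGGC (YY1), AAGGTCA (the half-site of estrogen-related receptors), CCAAT and GGGCGG (SP1). CCGGAAG and AAGATGGC can share their AAG, but no match of one motif overlapped a match of another in the subunit windows. At least 1 of the first 4 was found in 37 of the 60 subunit promoters. Ndufab1 and Ndufv1, also called higher, held no match in the stretch of 150 bases before to 20 after the start, and Cox6a1 had no window. Atp5f1c, the subunit called lower, held an NRF1 match there. Shown are the promoters of the 5 subunits called higher in resveratrol against lean control livers that held a match in this stretch, with matches in capitals.
Ndufb4 promoter: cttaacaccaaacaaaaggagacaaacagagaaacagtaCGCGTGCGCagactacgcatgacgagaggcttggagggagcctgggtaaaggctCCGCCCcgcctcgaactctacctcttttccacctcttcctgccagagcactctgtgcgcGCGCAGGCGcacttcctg
Ndufs7 promoter: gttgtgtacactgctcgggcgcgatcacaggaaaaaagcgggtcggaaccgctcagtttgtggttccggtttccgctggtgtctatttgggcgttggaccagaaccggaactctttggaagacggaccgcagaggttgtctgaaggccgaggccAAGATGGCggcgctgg
Sdhc promoter: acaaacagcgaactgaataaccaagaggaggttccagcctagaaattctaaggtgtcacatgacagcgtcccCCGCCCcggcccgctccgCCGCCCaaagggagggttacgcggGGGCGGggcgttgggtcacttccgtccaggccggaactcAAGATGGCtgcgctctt
Cox8a promoter: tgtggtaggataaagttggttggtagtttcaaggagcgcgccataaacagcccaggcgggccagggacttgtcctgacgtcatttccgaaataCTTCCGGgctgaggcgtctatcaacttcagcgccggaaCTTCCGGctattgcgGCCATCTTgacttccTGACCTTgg
Atp5mk promoter: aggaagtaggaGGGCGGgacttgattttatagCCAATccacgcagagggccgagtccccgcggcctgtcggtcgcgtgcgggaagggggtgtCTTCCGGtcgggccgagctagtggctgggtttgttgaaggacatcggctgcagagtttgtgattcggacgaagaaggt

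The stretches lie at chr11:76569028-76569197 (plus strand), chr7:10110479-10110648 (minus strand), chr13:86098006-86098175 (minus strand), chr1:213833604-213833773 (minus strand) and chr1:255922028-255922197 (minus strand) of GRCr8, each printed along the strand of its gene and ending just inside the first exon. The Ndufs7, Sdhc and Cox8a promoters hold the YY1 letters around or just after the start, in Cox8a on the other strand. The Ndufb4 stretch has 2 NRF1 matches and the Cox8a stretch 2 ETS matches. The 60 subunit promoters are those that RefSeq held and not those of the 60 tested subunits. They include the promoters of the complex IV genes Cox6b1, Cox6b2, Cox7b2, Cox8b and Cox8c, which were not tested. Among these 60 promoters, the YY1 letters were found in 25%, against 3.17% of all 33469 promoters and 5.42% of the 7755 that belong to tested genes. NRF1 letters were found in 26.7%, against 5.8% and 11.9%, and ETS letters in 26.7%, against 8.75% and 16.9%. The estrogen-related receptor half-site was found in 16.7%, against 4.61% and 2.94%. CCAAT was found in 36.7%, against 37.5% and 37.8%, and GGGCGG in 38.3%, against 33.1% and 57.5%. NRF1 letters were in 0 of the 12 complex IV promoters that RefSeq held, where 14 subunits were measured, in 8 of 26 complex I promoters and in 6 of 13 complex V promoters. A match is a run of letters and not a binding site, and binding was not measured.

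Genes that work beside the chain were read from lists chosen with earlier results known. The tricarboxylic acid cycle enzymes, which feed the chain with NADH and succinate, gave the same signs: all 10 tested had positive differences in obese against lean control livers, with a median of 0.28 and none called. In resveratrol against lean control livers their median was 0.31 and 3 of 10 were called higher, beside 2.4% of all tested genes. Idh3g and Idh3b, subunits of the NAD-dependent isocitrate dehydrogenase, had differences of 0.52 ± 0.12 and 0.49 ± 0.13 (adjusted p = 0.0172 and 0.0315), and malate dehydrogenase Mdh2 one of 0.43 ± 0.12 (adjusted p = 0.0390). With 1 array left out at a time, Idh3g stayed called in all 10 fits, Idh3b in 3 and Mdh2 in 1. Of 31 tested assembly factors that are not members, 26 had positive differences in obese against lean control livers (median 0.21, none called). In resveratrol against lean control livers, the complex I assembly factor Acad9 (0.52 ± 0.13, adjusted p = 0.0267) and the complex II assembly factor Sdhaf2 (0.42 ± 0.11, adjusted p = 0.0265) were called higher, and the complex III assembly factor Uqcc2 lower (-0.78 ± 0.22, adjusted p = 0.0434). The Uqcc2 probe set read 1.98, 2.49, 2.31, 1.97 and 1.97 in resveratrol rats, against 3.27, 2.50, 2.82, 3.10 and 2.94 in lean control rats. Most of these resveratrol values lay under the array medians, and the Uqcc2 call was lost with no low-value filter. No lower expression is therefore read from it. In rosiglitazone against lean control livers Cox20, which chaperones a complex IV subunit, was called higher (0.42 ± 0.11, adjusted p = 0.0493). These calls were not firm either: of 10 fits with an array left out, Acad9 stayed called in 5, Sdhaf2 in 4, Uqcc2 in 3 and Cox20 in 3. The 4 tested genes of uncoupling and adenine nucleotide exchange, Slc25a4 and Ucp2 among them, had a median of -0.09 in obese against lean control livers with none called.

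Of 16 tested genes of ubiquinone synthesis and other electron entry, 14 had positive differences in obese against lean control livers, with a median of 0.27. Coq5, a methyltransferase of ubiquinone synthesis, had values of 4.01, 4.37, 4.05, 4.06 and 4.10 in obese rats, against 3.55, 3.68, 3.71, 3.72 and 3.18 in lean control rats, without overlap. It was called higher by 0.55 ± 0.13 (adjusted p = 0.0277), and stayed so in 4 of 10 fits with an array left out (adjusted p up to 0.0745). Against lean control it was called higher in resveratrol livers too (0.45 ± 0.13, adjusted p = 0.0477), but in 1 of 10 such fits only. Coq10b, a ubiquinone-binding protein needed for respiration, had values of 5.00, 5.86, 6.80, 6.27 and 5.78 in obese rats, against 7.84, 6.74, 6.41, 7.95 and 7.83 in lean control rats. It was called lower, by -1.41 ± 0.30 (adjusted p = 0.0196), although lean control rats 2 and 3 were within or near the obese range, and the call was lost without lean control array 1 or 4. Against lean control, Coq10b was lower in rosiglitazone livers (-1.38 ± 0.30, adjusted p = 0.0116) and in resveratrol livers (-1.22 ± 0.30, adjusted p = 0.0222) as well, in all 10 and in 7 of 10 such fits.

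Of 14 tested regulators of mitochondrial gene expression, 9 had positive and 5 negative differences in obese against lean control livers (median 0.04), and 1 was called. This was Ppargc1a, the coactivator PGC-1alpha, known to drive mitochondrial gene expression and induced in liver by fasting and glucagon, which was lower. It had values of 3.58, 4.74, 4.91, 3.83 and 3.94 in obese rats, against 6.17, 5.53, 4.15, 6.63 and 6.50 in lean control rats. Lean control rat 3, the lean rat with the highest subunit mean, had the lowest Ppargc1a value of its group and lay among the obese rats. Lean control rat 1, with the lowest subunit mean, did not have the highest value: its 6.17 was below the 6.63 and 6.50 of rats 4 and 5. The difference was -1.60 ± 0.38 in obese livers (adjusted p = 0.0294) and -1.80 ± 0.38 in resveratrol livers (adjusted p = 0.0115) against lean control livers, while in rosiglitazone livers it was -0.92 ± 0.38 (adjusted p = 0.226). With 1 of the 10 arrays left out at a time, the obese call held in 3 fits (adjusted p from 0.000845, without lean control array 3, to 0.0935, without lean control array 4), and the resveratrol call held in all 10.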

How the data were processed

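RNA from 20 snap-frozen livers was measured on 1 array each. The authors deposited log2 expression values after RMA, which corrects background, normalizes quantiles and summarises probes; no source used here gives its software version or the genome build. Because normalization was done before deposit, a shift shared by all genes cannot be seen, and precision is limited by the number of arrays. Members and lists were chosen with earlier results of these data known. By rule the text names members called anywhere, the 2 of each complex with the smallest p in obese against lean control, rosiglitazone against obese and resveratrol against obese, the member with the highest mean of each complex, tissue isoforms and called genes of the lists; further members were chosen after their values were seen. Genes above the array percentile 50 in at least 5 arrays entered limma 3.58.1 (R 4.3.3), with all 4 groups in 1 fit, empirical Bayes moderation and p-values adjusted over 9481 genes at a threshold of 0.05. The labels call the samples biological replicates. Alternatives varied the low-value filter, normalization, probe set choice, variance model, array weights, groups fitted, a replicate block and the arrays included. The steps were tested on simulated data. Figures were drawn with matplotlib 3.10.9 (Python 3.11.15).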

Additional observations from a re-analysis of the deposited data

Results flagged for a closer look

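Each group of 5 rats was searched for a single rat whose gap to its nearest neighbour took more than 0.71 of the group's range (Dixon's 95% limit), over 48 named genes and 10 sets of genes. Of 232 such groups 15 were singled out, and chance gives about 1 in 20. Lean control rat 1 was low in Cox6a1 (8.22) and in Cox7a2l (5.71), and lean control rat 3 was high in Uqcrq (7.80). Without lean control array 1 the Cox6a1 difference between obese and lean control livers was no longer called. The call was equally lost without lean control array 2 or 4, or without any 1 of obese arrays 2 to 5. Rosiglitazone rat 3 was high in Sdhc (7.62) and Uqcrc2 (7.79). Among obese rats, rat 5 was high in Cox8a (7.33), rat 4 in Ndufc2 (7.79), rat 1 in the untested Cox6b2 (2.45) and rat 2 in Coq5 (4.37). Obese rat 1 was also low in the mean deviation of complex II (0.02) and of the ubiquinone and electron entry list (-0.01). Among resveratrol rats, rat 5 was low in Atp5f1b (9.01) and high in Coq10b (6.45), and rat 4 was high in Coq5 (4.38) and low in Ucp2 (4.55).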

How the results depend on the processing

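The median difference over the members kept its sign in every comparison with any 1 array left out: 0.14 to 0.28 in obese against lean control livers, -0.13 to -0.09 in rosiglitazone against obese, 0.02 to 0.05 in resveratrol against obese, -0.17 to -0.12 in rosiglitazone against resveratrol, 0.02 to 0.15 in rosiglitazone against lean control and 0.17 to 0.31 in resveratrol against lean control. Counts of calls moved far more. With an array left out, called members ran from 0 to 9 in obese against lean control livers, 0 to 2 in rosiglitazone against lean control, 3 to 20 in resveratrol against lean control and 1 to 10 in the F test, each highest without lean control array 3. Over all genes the counts were 59 to 518 in obese against lean control livers (172 with all arrays), 71 to 131 in rosiglitazone against obese (142), 43 to 71 in rosiglitazone against resveratrol (84), 150 to 416 in rosiglitazone against lean control (229) and 197 to 766 in resveratrol against lean control (449). The highest counts against lean control came without lean control array 3 and the lowest without lean control array 4.

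In obese against lean control livers, called members numbered 0 with no low-value filter, beside 0.989% of all genes. With the filter at percentile 75 they numbered 4 of 63 (6.35%), beside 5.34% of all genes (290 genes). They numbered 1 with quantile normalization repeated (1.37%, beside 2.08%) and 0 with arrays centred on their medians (beside 1.5%). With only the compared groups fitted they numbered 0, beside 0.307% (27 genes). In rosiglitazone against lean control livers, 1 member (Atp5mk) was called with the percentile 75 filter, with a filter on the mean over all arrays, with quantile normalization repeated and with a mean-variance trend, and 114 genes in all were called with only the compared groups fitted. In resveratrol against lean control livers, 4 members were called with no filter, 16 with the percentile 75 filter and 0 (166 genes in all) with only the compared groups fitted. For both treated groups these counts stand without the share over all genes, so they are not read as a result about the members. The F test called 3 members with no filter. Without lean control arrays 1 and 3, a setting chosen after seeing the data, 1 member and 317 genes were called in obese against lean control livers and 3 members in the F test. Fewer genes tested or fewer samples fitted enter some of these settings by construction, and otherwise the cause was not tested. Of the values for single named genes and of the subunit medians together, 1033 stayed the same, while 16 gene values passed the threshold and 188 lost it. For a gene, the same means the same sign and side of the threshold, so a gene that was uncalled and stayed uncalled counts as the same. For a median, it means a move no larger than the spread of rats within a group.

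The replicate numbers pair nothing in the labels. Deviations of same-numbered rats correlated by -0.0198 on average, against 0.005 for differently numbered ones, and 5 of 30 pairs were over 0.1. With the replicate block, 1 member (Sdhc) was called in obese against lean control livers (1.37% of 73, beside 1.6% of all genes). It was 4 in resveratrol against lean control livers and 3 in the F test, given without the share over all genes and not read as a result about the members.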
